A study of Arabidopsis thaliana with 9 samples.

Results

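Transcripts of 10 genes that encode enzymes of chlorophyll biosynthesis, or a protein that activates one of them, were followed in whole seedlings of Arabidopsis thaliana. The genes were chosen by name, with earlier results of these data known. In the order of the pathway they are HEMA1, GUN4, GUN5, CHLI1, CHLI2, CHLM, CRD1, PORA, PORB and PORC. They are 10 of the 24635 genes in the deposited tables. The symbols of 9 matched exactly, and PORC is written there with a space. All 10 passed the filter on low counts in each of the 3 comparisons. Polyadenylated RNA was sequenced in 9 libraries, 3 from each of 3 groups described as biological replicates, and every seedling was 6 days old and grew with 16 hours of light a day and a dark period of 8 hours. The melinoe group is an EMS mutant of FMN/FHY (AT4G21470), the gene of a bifunctional enzyme that makes the flavin cofactor FMN from riboflavin and also hydrolyses FMN. An EMS line can carry further mutations, and the labels name no second allele and no complemented line. The riboflavin group is Col-0, the wild type, given riboflavin for 8 hours during the dark period, at 0.6 mM in the sample labels and 0.2 mM in the design text. The third group is untreated Col-0. The labels give neither the hour at which melinoe and untreated Col-0 were collected nor a mock treatment, so riboflavin and the hours of darkness cannot be told apart in comparisons with the riboflavin group.

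Chlorophyll is built in the plastid from glutamate. Glutamyl-tRNA reductase opens the route to protoporphyrin IX, where the pathway divides: magnesium chelatase leads to chlorophyll and iron chelatase leads to heme and the bilins. Later steps on the chlorophyll side methylate the magnesium porphyrin, close its extra ring and reduce protochlorophyllide, a reduction that in flowering plants needs light, and free intermediates are phototoxic, so the pathway is controlled at several steps.

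Library totals ran from 19964397 to 21421418 counts, and no library was left out. FMN/FHY itself had 40.7 ± 1.51 TPM in melinoe, 124 ± 1.91 TPM in the riboflavin group and 47.0 ± 2.26 TPM in Col-0 (SD, n = 3 each). Its log2 fold change over Col-0 was -0.15 in melinoe (edgeR quasi-likelihood, adjusted p = 0.0168) and 1.41 in the riboflavin group (adjusted p = 1.94e-20). The labels do not give the base that was changed, so the transcript level does not check the genotype. TPM was computed from the counts, by dividing each by the length of the longest annotated transcript and giving every library an equal total. It is used for levels, whereas all fold changes come from counts.

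CRD1 had the highest transcript level of the 10 genes in each group, and CHLI2, PORA and PORC were the 3 lowest in each group. The summed level of the 10 genes was 1741.7 to 1773.0 TPM in melinoe, 1001.8 to 1034.0 TPM in the riboflavin group and 2002.1 to 2044.9 TPM in Col-0, so the 3 groups did not overlap. In Col-0 the order was CRD1, CHLM, PORB, GUN5, HEMA1, CHLI1, GUN4, CHLI2, PORA and PORC. The libraries of CHLM overlapped those of PORB there, and those of CHLI2 overlapped those of PORA. In melinoe PORA was last, below PORC, and CHLI1 and HEMA1 stood above GUN5. The overlapping neighbours in melinoe were PORB with CHLM, CHLI1 with HEMA1 and HEMA1 with GUN5. In the riboflavin group HEMA1 came next after CRD1, PORB stood below CHLM and GUN5, and only PORC and PORA overlapped. In the authors' deposited mean TPM, CRD1 was also highest in each group (445 in melinoe, 318 in the riboflavin group and 533 in Col-0), but CHLM stood above PORB in melinoe and above HEMA1 in the riboflavin group, and PORA stood just above CHLI2 in Col-0.

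**Figure D1:**
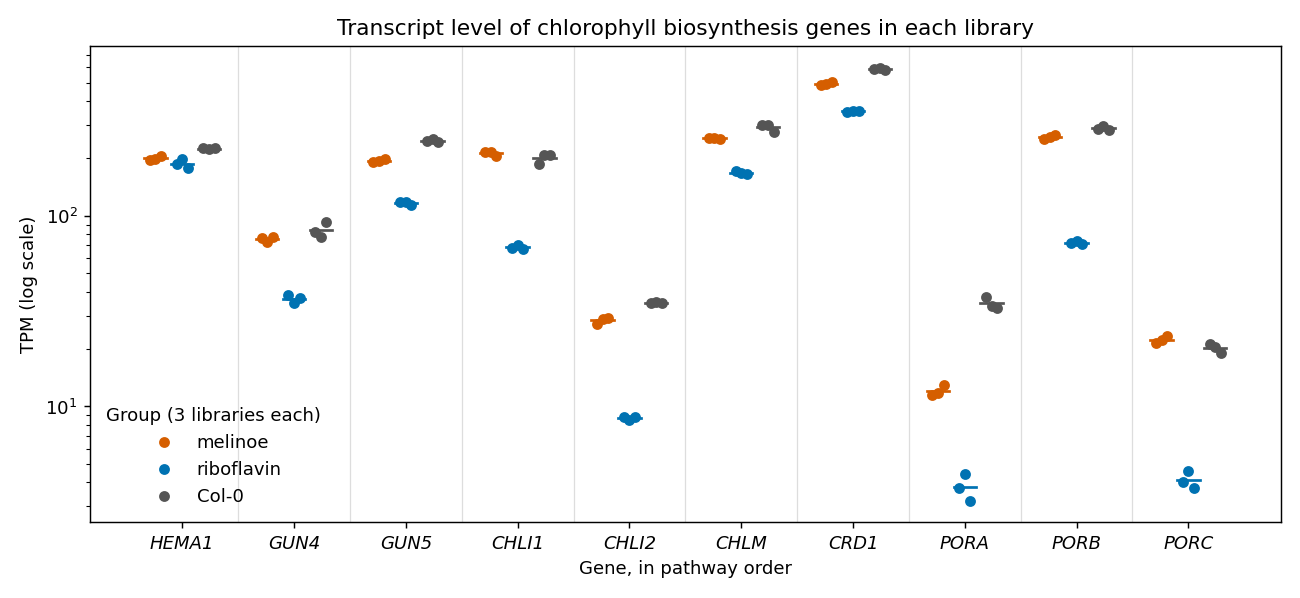
Transcript level in TPM (log axis) of the 10 genes in pathway order, with a point for each of 3 libraries in melinoe, the riboflavin group and Col-0 and a line at each mean. The riboflavin libraries lie lowest for each gene except HEMA1, where a library of theirs reaches melinoe, and PORA is the gene for which melinoe also lies far below Col-0, with 12.1 against 34.8 TPM.

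In riboflavin-treated seedlings all 10 transcripts were lower than in untreated Col-0. The smallest change was that of HEMA1, the first enzyme, at 83.9% of Col-0, and the largest that of PORA, which converts protochlorophyllide, at a 9.09-fold lower level. The median log2 fold change of the 10 genes was -1.37, against -0.003 over all 20356 genes tested. Of all genes tested, 37.4% were called lower (adjusted p under 0.05 in edgeR, the threshold of every call below), and 10 of 10 members were. A log2 fold change of -1 or below was called for 9.94% of all genes and for 7 of the 10, the exceptions being HEMA1, CHLM and CRD1. The CPM values of both groups did not overlap for any of the 10, as for 38.1% of all genes, which were lower with no overlap.

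In melinoe seedlings the changes were small, apart from PORA. PORA was at 36.1% of Col-0, and the other 9 lay between 81.8% (GUN5) and 115% (PORC). Of the 10 genes 7 were lower, 2 were higher (CHLI1 and PORC) and GUN4 was not called, while 25.2% of all 20277 genes tested were called lower and 25.4% higher. The median of the 10 was -0.12, against -0.003 over all genes. PORA alone had a called log2 fold change of -1 or below, as had 2.40% of all genes. The CPM values of 7 members were lower without overlap, against 28.3% of all genes, and those of 2 were higher without overlap, against 28.3%.

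Set against melinoe directly, the riboflavin group was lower for all 10 genes. Their median was -1.37 on the log2 scale, against -0.002 over all 20344 genes tested. Of all genes, 37.1% were called lower there, 38.6% were lower with no overlap in CPM, as were all 10 members, and 9.61% had a called log2 fold change of -1 or below, which 6 of the 10 members had. PORC had the lowest value, -2.48, at 17.9% of melinoe, and HEMA1 the smallest change, -0.13 (edgeR, adjusted p = 0.00178). The 3 comparisons use each group in turn, so any 2 of them share 3 libraries.

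**Figure D2:**
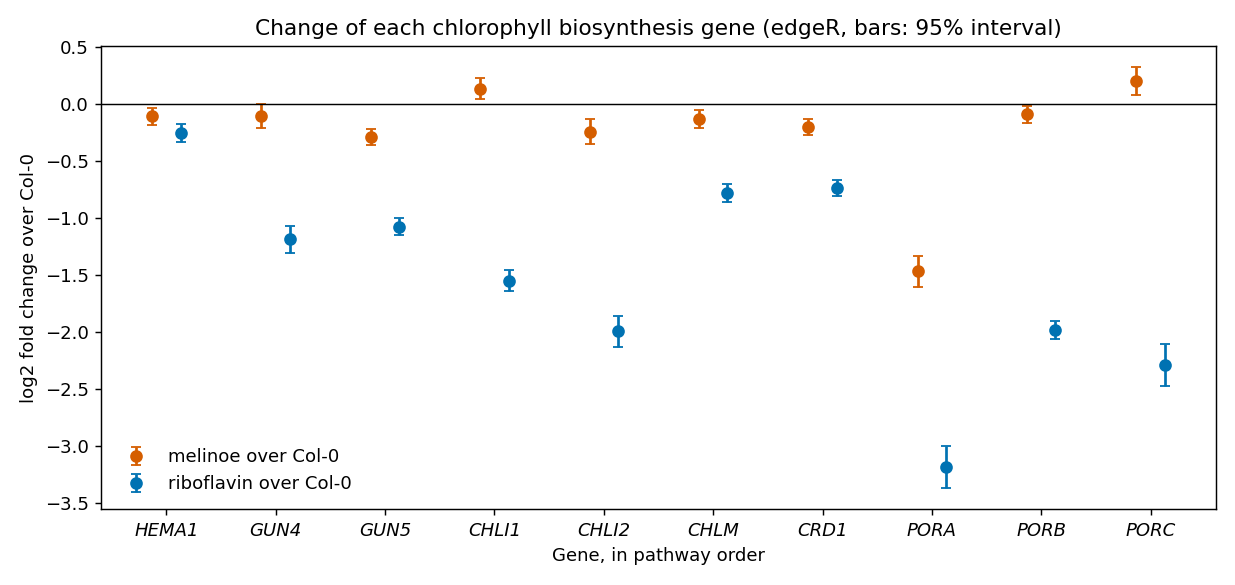
log2 fold change over Col-0 of each gene in pathway order, in melinoe (orange) and in the riboflavin group (blue), with edgeR estimates and 95% intervals. All blue points lie below 0, between -0.25 for HEMA1 and -3.18 for PORA, while the orange points lie near 0 except PORA at -1.47.

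HEMA1 (AT1G58290; TAIR10.1 chromosome 1, 21623700 to 21626402, minus strand, 3 exons) encodes the main glutamyl-tRNA reductase of green tissue, which commits glutamate to the pathway. Its level was 197, 198 and 206 TPM in melinoe, 186, 197.5 and 179 TPM in the riboflavin group, and 226, 223 and 227 TPM in Col-0. Col-0 stood above the others, and the highest riboflavin library reached the lowest of melinoe, though not in CPM. The log2 fold change over Col-0 was -0.11 ± 0.036 (SE, as for all fold changes) in melinoe (edgeR, adjusted p = 0.0126) and -0.25 ± 0.037 in the riboflavin group (adjusted p = 8.57e-07). Without melinoe library A the first of these had an adjusted p of 0.0595. HEMA2, the paralog used largely for heme outside green tissue, had 32.2 to 34.0 TPM in melinoe, 39.2 to 42.3 TPM in the riboflavin group and 34.2 to 37.2 TPM in Col-0. HEMA2 rose with riboflavin by a log2 fold change of 0.21 (edgeR, adjusted p = 0.00023), opposite to HEMA1, and was not called in melinoe (-0.02, adjusted p = 0.707). The coding sequences of HEMA1 and HEMA2 in the annotation are 82.7% identical, and the longest run they share is 49 bases.

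Magnesium chelatase has an H subunit that holds the porphyrin (GUN5), an I subunit that hydrolyses ATP (CHLI1 and CHLI2) and a D subunit that bridges them (CHLD), and GUN4 binds porphyrin and activates the enzyme. With riboflavin each of the 4 chelatase members fell at least to 47.5% of Col-0, and the I subunits fell furthest. GUN5 (AT5G13630; chromosome 5, 4387307 to 4392429, minus strand, 5 exons) had 192, 193 and 198 TPM in melinoe, 118, 118 and 113 TPM in the riboflavin group, and 247, 253 and 243 TPM in Col-0. These groups were separate, in the order riboflavin, melinoe, Col-0. GUN5 had a log2 fold change over Col-0 of -0.29 ± 0.036 in melinoe (edgeR, adjusted p = 1.1e-07) and -1.07 ± 0.035 in the riboflavin group (adjusted p = 3.43e-20).

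GUN4 (AT3G59400; chromosome 3, 21948501 to 21949796, minus strand, 1 exon) had 76.3, 72.8 and 77.2 TPM in melinoe, 38.4, 34.7 and 37.3 TPM in the riboflavin group, and 82.5, 77.6 and 93.3 TPM in Col-0. Only the riboflavin libraries stood apart from the rest. Melinoe lay just under Col-0 in TPM and overlapped it in CPM (TMM-scaled counts per library, the scale of the tests). For GUN4 the log2 fold change was -0.10 in melinoe, with a 95% interval from -0.21 to 0.004 (edgeR, adjusted p = 0.102), and -1.19 ± 0.059 in the riboflavin group (adjusted p = 3.82e-16). The melinoe value rests on which Col-0 libraries are used: it was -0.16 without library B (adjusted p = 0.0162) and -0.03 without library C (adjusted p = 0.658). Of the 1296 bases of GUN4, 946 overlap GCN2 (AT3G59410), a kinase gene on the opposite strand. The library kit keeps the strand, but whether it was used in counting is not stated. GCN2 had 400 to 451 counts in melinoe, 521 to 557 in the riboflavin group and 620 to 651 in Col-0, and GUN4 had 1245 to 1326 counts in melinoe, 584 to 643 in the riboflavin group and 1336 to 1596 in Col-0.

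CHLI1 (AT4G18480; chromosome 4, 10201672 to 10203469, minus strand, 3 exons) had 216, 216 and 206 TPM in melinoe, 67.7, 70.1 and 67.2 TPM in the riboflavin group, and 187, 209.6 and 208 TPM in Col-0. The riboflavin libraries lay far below the others, and melinoe overlapped Col-0 on this scale though not in CPM. CHLI1 had a log2 fold change of 0.14 ± 0.043 in melinoe (edgeR, adjusted p = 0.00964) and -1.55 ± 0.046 in the riboflavin group (adjusted p = 3.19e-21). The rise in melinoe rests on Col-0 library A, without which it was 0.08 (adjusted p = 0.125). CHLI2 (AT5G45930; chromosome 5, 18627950 to 18629697, plus strand, 3 exons) had 27.2, 28.8 and 29.2 TPM in melinoe, 8.83, 8.48 and 8.83 TPM in the riboflavin group, and 35.0, 35.2 and 34.7 TPM in Col-0. All 3 groups were separate. Its log2 fold change was -0.24 ± 0.053 in melinoe (edgeR, adjusted p = 0.000442) and -1.99 ± 0.066 in the riboflavin group (adjusted p = 4.65e-20).

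CHLI2 made up 11.8 ± 0.607% of the summed CHLI TPM in melinoe, 11.3 ± 0.452% in the riboflavin group and 14.8 ± 0.832% in Col-0 (SD, n = 3 each). Its share was thus lower than in Col-0 in each of the 6 other libraries. The log2 ratio of CHLI2 to CHLI1 counts within a library, which does not depend on library scaling, was lower than in Col-0 by -0.38 in melinoe and by -0.44 in the riboflavin group. Each had p = 0.1 in a two-sided exact permutation test, the smallest p that 3 against 3 libraries can give, and 0.129 adjusted over the 9 ratio tests made. The riboflavin group and melinoe differed by -0.06 (exact p = 0.4). The coding sequences of CHLI1 and CHLI2 are 82.0% identical with a shared run of up to 44 bases, so part of their reads may have been split between them in counting. CHLD, the partner subunit, was lower in melinoe (log2 fold change -0.20; edgeR, adjusted p = 0.000167) and with riboflavin (-0.84, adjusted p = 6.48e-17).

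CHLM and CRD1 act between the chelatase and protochlorophyllide. With riboflavin their log2 fold changes were nearer to 0 than those of GUN4, GUN5, CHLI1 and CHLI2. This was not a trait of these steps as a whole. LCAA, a further subunit of the cyclase to which CRD1 belongs, was at -1.53, and the chelatase subunit CHLD was at -0.84. CHLM (AT4G25080; chromosome 4, 12876822 to 12878703, plus strand, 3 exons), which methylates magnesium protoporphyrin IX, had 258, 255 and 254 TPM in melinoe, 172, 167 and 165 TPM in the riboflavin group, and 298, 299 and 275 TPM in Col-0. The groups did not overlap. CHLM had a log2 fold change of -0.13 ± 0.039 in melinoe (edgeR, adjusted p = 0.00727) and -0.78 ± 0.039 in the riboflavin group (adjusted p = 4.85e-16).

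CRD1 (AT3G56940; chromosome 3, 21076505 to 21078443, plus strand, 5 exons), the diiron subunit of the cyclase that closes the extra ring, had 488, 490.4 and 501 TPM in melinoe, 350.4, 355 and 353 TPM in the riboflavin group, and 590.0, 599 and 586 TPM in Col-0. The libraries of each group lay close together and the groups were well apart. For CRD1 the log2 fold change was -0.20 ± 0.035 in melinoe (edgeR, adjusted p = 1.99e-05) and -0.74 ± 0.034 in the riboflavin group (adjusted p = 6.55e-17). Windows of 186 bases before each gene start in RefSeq TAIR10.1 were searched. This length is the longest stretch before PORB free of another annotated protein-coding gene, and it was used for every gene. The windows of GUN4 and PORC lie wholly within another gene (GCN2 and AT1G03620). Those of CHLM and CHLI1 overlap another gene by 99 and 58 bases. CRD1 was the only member with the G-box CACGTG, the core site of bHLH and bZIP factors. It is held on either strand by 5.39% of 27443 such windows. The window of CRD1 (chr3:21076319-21076504, plus strand) is shown as the promoter of the most abundant member, with the G-box in capitals, 52 to 47 bases before the start.
CRD1: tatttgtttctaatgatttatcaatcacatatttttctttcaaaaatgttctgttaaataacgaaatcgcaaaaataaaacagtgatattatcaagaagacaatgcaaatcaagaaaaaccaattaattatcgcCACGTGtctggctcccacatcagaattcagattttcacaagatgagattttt

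The 3 POR genes encode the light-dependent protochlorophyllide oxidoreductases. PORA is best known from seedlings raised in darkness and declines in light, PORB is present in darkness and light, and PORC is a gene of light-grown tissue. Their summed level was 294 ± 6.58 TPM in melinoe, 80.03 ± 2.35 TPM in the riboflavin group and 342 ± 6.60 TPM in Col-0 (SD, n = 3 each). PORB made up most of it in every group.

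PORA (AT5G54190; chromosome 5, 21990864 to 21992814, minus strand, 4 exons) had 11.5, 11.7 and 12.9 TPM in melinoe, 3.75, 4.40 and 3.21 TPM in the riboflavin group, and 37.6, 33.7 and 32.9 TPM in Col-0. The 3 groups were separate, with riboflavin lowest and Col-0 highest. The counts behind these levels were 237 to 275 in melinoe, 66 to 92 in the riboflavin group and 699 to 812 in Col-0. PORA had a log2 fold change of -1.47 ± 0.068 in melinoe (edgeR, adjusted p = 1.78e-16), and 189 of the 20277 genes tested had a lower value. With riboflavin it was -3.18 ± 0.09, the largest fall of the 10 (adjusted p = 1.34e-21), and 39 of 20356 genes had a lower value. PORA was also lower in the riboflavin group than in melinoe, by a log2 fold change of -1.71 ± 0.108 (adjusted p = 8.25e-15).

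PORB (AT4G27440; chromosome 4, 13725546 to 13727440, plus strand, 4 exons) had 254, 259 and 264 TPM in melinoe, 71.6, 73.7 and 71.1 TPM in the riboflavin group, and 285, 294 and 283 TPM in Col-0. The riboflavin libraries stood far below, while melinoe lay close under Col-0. For PORB the log2 fold change was -0.09 ± 0.037 in melinoe (edgeR, adjusted p = 0.0396) and -1.98 ± 0.039 in the riboflavin group (adjusted p = 2.94e-25). The melinoe call did not hold with DESeq2 (adjusted p = 0.062), and in the authors' deposited table its q was 0.0687. It was also lost without Col-0 library B (adjusted p = 0.148), melinoe library A (0.133) or melinoe library B (0.0836). PORB overlaps AT4G27450 by 71 bases on the opposite strand, and that gene had 28403 to 30388 counts in the riboflavin group against 10697 to 11018 in Col-0. Opposite-strand genes also overlap CRD1 by 147 bases, CHLI2 by 136, PORC by 121, CHLI1 by 116 and CHLM by 37.

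PORC (AT1G03630; chromosome 1, 907523 to 909650, plus strand, 5 exons) had 21.5, 22.2 and 23.4 TPM in melinoe, 4.03, 4.57 and 3.72 TPM in the riboflavin group, and 21.2, 20.4 and 19.2 TPM in Col-0. Melinoe lay just above Col-0, and the riboflavin libraries lay far below both. The log2 fold change was 0.20 ± 0.06 in melinoe (edgeR, adjusted p = 0.0069) and -2.29 ± 0.088 in the riboflavin group (adjusted p = 1.16e-18). Without Col-0 library C the value in melinoe was 0.16 (adjusted p = 0.0521). The gene that overlaps PORC, AT1G03620, had 49 to 72 counts in melinoe, 104 to 136 in the riboflavin group and 98 to 126 in Col-0. PORC itself had 490 to 553, 85 to 106 and 452 to 508 counts in these groups.

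**Figure D3:**
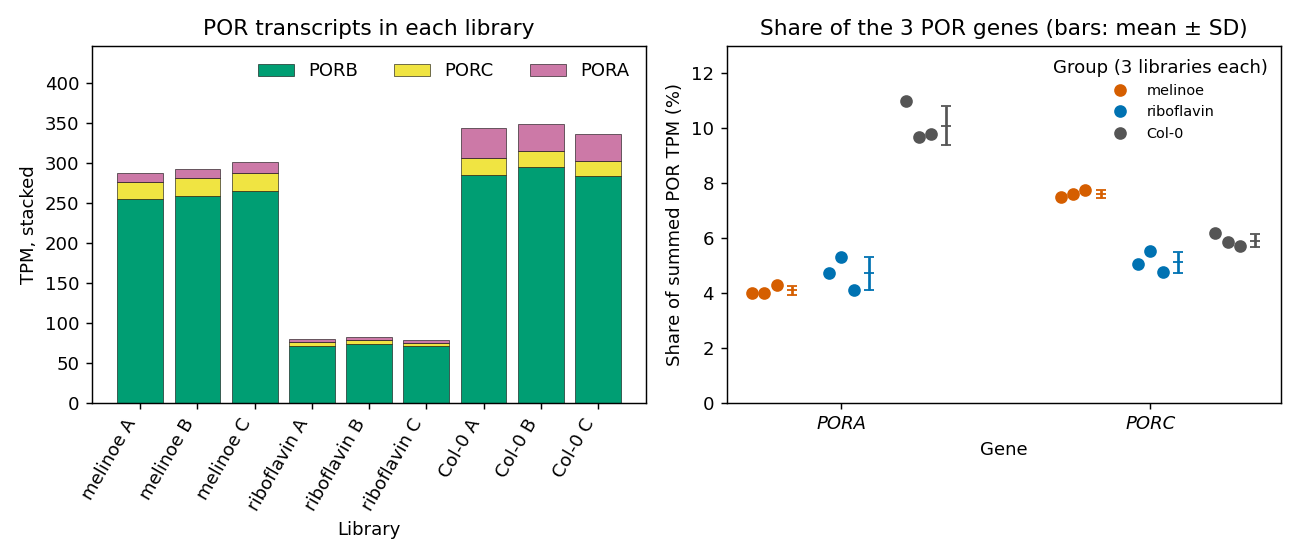
Left, stacked TPM of PORB, PORC and PORA in each library; right, the percentage of summed POR TPM held by PORA and by PORC in each library, with mean and SD of 3 libraries a group. PORB fills most of every bar, and the share of PORA is near 4 to 5% in the melinoe and riboflavin groups and above 9% in each Col-0 library.

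The makeup of the POR transcripts differed between the groups. PORA held 4.10 ± 0.16% of the summed POR TPM in melinoe, 4.72 ± 0.607% in the riboflavin group and 10.1 ± 0.705% in Col-0 (SD, n = 3 each). PORC held 7.61 ± 0.147% in melinoe, 5.12 ± 0.381% in the riboflavin group and 5.91 ± 0.237% in Col-0. Within a library, the log2 ratio of PORA to PORB counts was lower than in Col-0 by -1.38 in melinoe and by -1.21 in the riboflavin group (exact permutation p = 0.1 for each). The riboflavin group and melinoe differed in this ratio by 0.17 (exact p = 0.2), with overlapping libraries. The ratio of PORC to PORB differed from Col-0 by 0.29 in melinoe and by -0.31 in the riboflavin group (exact p = 0.1 for each), and between the riboflavin group and melinoe it differed by -0.60 (exact p = 0.1). None of the 9 exact tests of ratios could pass 0.05 with 3 libraries a group, and those at p = 0.1 had an adjusted p of 0.129. The coding sequences of PORA and PORB are 83.3% identical with a shared run of up to 44 bases, against 73.6% for PORA and PORC and 73.8% for PORB and PORC.

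The windows before PORA (chr5:21992815-21993000, minus strand) and PORB (chr4:13725360-13725545, plus strand) are set side by side. Both genes fell with riboflavin, as did every member, while in melinoe PORA fell by 1.47 and PORB by 0.09 on the log2 scale. Both hold AAAATATCT, the evening element of clock-regulated genes, which 1.80% of 27443 windows hold on either strand, and no other member window does. The windows of these paralogs also share letters just after this element, such as aaatctaattctc, so their matches may not be independent. The evening element is the first stretch in capitals of each. The second is GATAAG on the opposite strand in PORA (9.39% of windows) and CCAATC in PORB (7.94% of windows). The GUN4 window, which lies wholly within GCN2, also holds CCAATC, 13 to 8 bases before the start. In PORA the evening element lies 180 to 172 bases before the start, near the far end of a window whose length was set by PORB. A match of letters does not show that a factor binds at any of these sites.
PORA: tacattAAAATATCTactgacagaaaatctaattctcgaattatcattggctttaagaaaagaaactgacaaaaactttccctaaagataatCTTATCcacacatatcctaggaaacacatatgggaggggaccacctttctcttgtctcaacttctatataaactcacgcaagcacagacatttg
PORB: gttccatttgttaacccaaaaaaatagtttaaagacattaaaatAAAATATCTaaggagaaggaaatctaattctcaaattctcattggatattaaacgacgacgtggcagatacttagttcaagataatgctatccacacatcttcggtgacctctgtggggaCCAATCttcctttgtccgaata

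The other genes of tetrapyrrole synthesis gave the setting for these values. The list holds 27 loci, of which 25 were tested against Col-0. With riboflavin 22 of the 25 were lower, 2 were higher and 1 was not called, where 37.4% of all genes were called lower and 36.8% higher. Their median log2 fold change was -0.84, against -0.003 over all genes. Members of the list on the chlorophyll branch were lower in 6 of 6 cases, with a median of -1.43. Early steps were lower in 11 of 13 cases (median -0.85) and heme and bilin steps in 5 of 6 (median -0.49). The lowest values were those of DVR, the divinyl reductase (-1.85), GSA2, a glutamate-1-semialdehyde aminotransferase (-1.73), LCAA, a further subunit of the cyclase (-1.53), and CHLG, chlorophyll synthase (-1.44), each with an adjusted p of at most 4.29e-18 in edgeR. DVR had 7.36 to 8.13 TPM in the riboflavin group against 27.0 to 30.1 TPM in Col-0. The 2 that rose were HY1, the main heme oxygenase (0.71), and HEMA2.

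In melinoe 8 of the 25 were lower, 2 were higher and 15 were not called, with a median of -0.06. Over all genes 25.2% were called lower and 25.4% higher. On the chlorophyll branch 2 of 6 were lower, CHLD and CHLP. The lowest called values were -1.11 for HEMA3, a glutamyl-tRNA reductase paralog with 5 to 7 counts in melinoe and 12 to 16 in Col-0, -0.75 for HEMF2, a coproporphyrinogen oxidase paralog, -0.44 for HEMD, uroporphyrinogen synthase, and -0.39 for the ferrochelatase FC1. The 2 that rose were HO3, a heme oxygenase paralog with 39 to 52 counts in melinoe and 12 to 18 in Col-0 (1.72), and GSA1 (0.20). Between the riboflavin group and melinoe, 18 of 24 tested were lower and 4 higher, with a median of -0.83, where 37.1% of all genes were called lower and 37.0% higher. The lowest were HO3 (-2.93), DVR (-1.90), GSA2 (-1.66) and LCAA (-1.55). HO3 had only 2 to 10 counts in the riboflavin libraries, so its value rests on few reads. The 4 higher were HY1 (0.80), HEMF2 (0.46), HEMA2 (0.25) and FC1 (0.15).

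**Figure D4:**
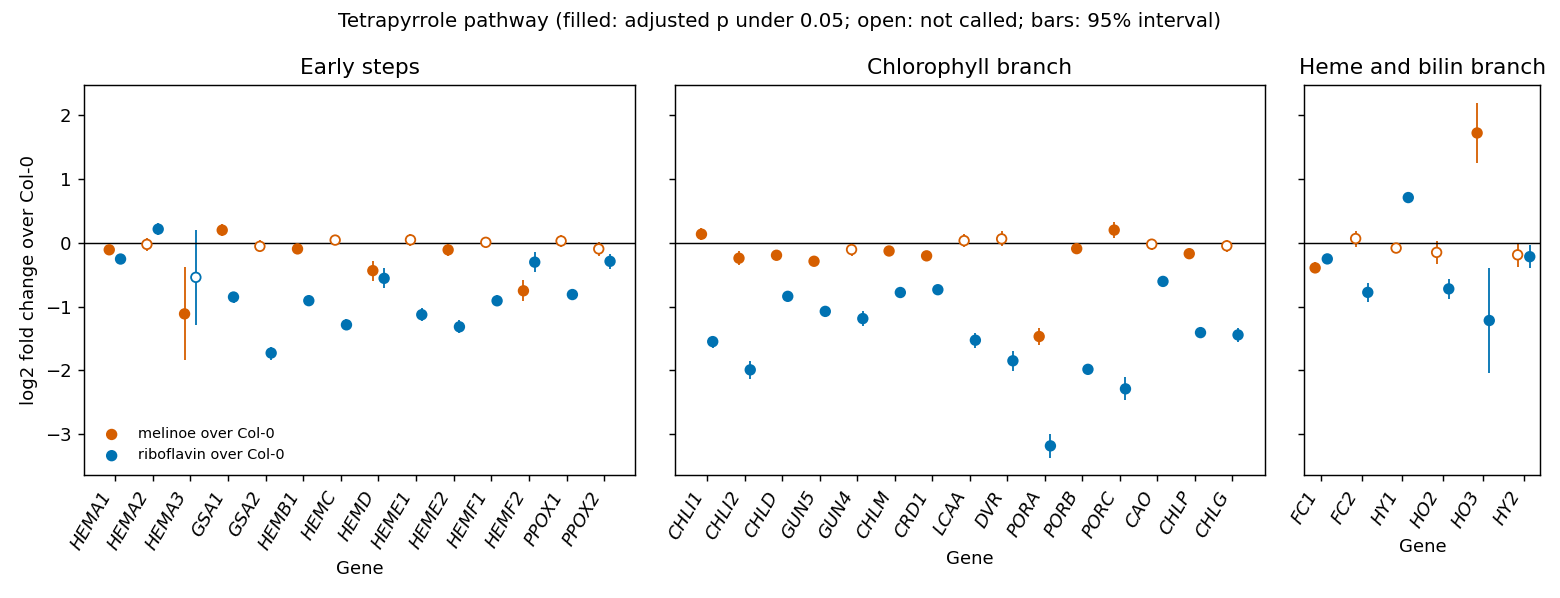
log2 fold change over Col-0, with 95% intervals, of the 10 genes and of the tested genes of the pathway list, arranged by branch, in melinoe (orange) and the riboflavin group (blue); filled points passed an adjusted p of 0.05. On the chlorophyll branch every blue point lies below 0, and most orange points lie close to 0, with PORA at -1.47 the lowest of them.

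Of a list of 15 regulators of the pathway, 8 were higher in melinoe, 2 were lower and 5 were not called, where 25.4% of all genes were called higher and 25.2% lower. Their median was 0.09 on the log2 scale, against -0.003 over all genes. The highest were GNL (1.95) and GNC (0.45), GATA factors that promote chlorophyll formation, HY5 (1.35), a bZIP factor of light responses, and GLK2 (1.04), a factor that activates chlorophyll genes. GLK2 had 163 to 169 TPM in melinoe against 82.7 to 85.2 TPM in Col-0, with no overlap (edgeR, adjusted p = 2.25e-18). Its paralog GLK1 was not called in melinoe (0.07, adjusted p = 0.18). The lower ones were FLU, an inhibitor of glutamyl-tRNA reductase (-0.19), and FHY3 (-0.13), a factor of phytochrome A signalling.

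With riboflavin 8 of the 15 regulators were lower and 4 higher, with a median of -0.22, beside 37.4% of all genes lower and 36.8% higher. The lowest were LIL3.1 (-1.76) and LIL3.2 (-0.92), light-harvesting-like proteins that stabilise the enzyme geranylgeranyl reductase, PIF1 (-1.02), a bHLH factor that regulates protochlorophyllide accumulation in darkness, and GLK1 (-0.88). The higher ones were GNL (0.43), HY5 (0.37), FHY3 (0.33) and FAR1 (0.18), the paralog of FHY3. The libraries of GNL overlapped in CPM, with 54 to 79 counts in the riboflavin group and 50 to 60 in Col-0. Between the riboflavin group and melinoe 12 of 15 were lower, beside 37.1% of all genes, and FHY3 was higher (0.47), with LIL3.1 (-1.69), GNL (-1.51), GLK2 (-1.08) and PIF1 (-1.03) lowest.

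Genes known to rise in darkness and sugar shortage moved with the riboflavin group. All 7 on the list were higher there than in Col-0, where 36.8% of all genes were called higher. Their median log2 fold change was 0.89 against -0.003 over all genes, with values from 0.22 for DIN10 and 0.42 for DIN1 to 2.10 for DIN6 and 7.43 for DIN2. Their summed level was 1270.0 to 1344.8 TPM in melinoe, 3658.6 to 3677.1 TPM in the riboflavin group and 2010.6 to 2121.9 TPM in Col-0. In melinoe DIN2 was higher (1.42), and DIN1 (-0.87), DIN6 (-0.68) and DIN4 (-0.23) were lower. The list was chosen with earlier results of these data known, so its counts are not independent support. The part of these genes in the fall of the chlorophyll genes was not tested.

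Cell type markers were counted beside these values. The shares over all genes were 25.4% higher and 25.2% lower in melinoe, and 36.8% higher and 37.4% lower in the riboflavin group, so counts from lists of 4 to 6 markers say little on their own. Of 4 mesophyll markers 3 were lower and 1 higher, in melinoe (GLDP1 higher) and in the riboflavin group (LOX2 higher), and their summed level was 1666.2 to 1787.6 TPM in melinoe, 994.16 to 1072.2 TPM in the riboflavin group and 2241.4 to 2364.4 TPM in Col-0. Most of this sum is RCA, with 1363 to 1465 TPM in melinoe, 538 to 594.6 TPM in the riboflavin group and 1798 to 1900 TPM in Col-0. In whole seedlings fewer green cells and less RNA per green cell cannot be told apart. Of 4 root hair markers 3 were lower in melinoe, and 2 were lower and 1 higher in the riboflavin group, with summed levels of 34.0 to 42.8 TPM in melinoe, 62.3 to 63.7 TPM in the riboflavin group and 66.2 to 80.9 TPM in Col-0. Of 6 endodermis and root tip markers 2 were higher and 2 lower in melinoe, and 1 was higher and 4 lower in the riboflavin group, with summed levels of 166 to 177 TPM in melinoe, 140.5 to 149 TPM in the riboflavin group and 171 to 187 TPM in Col-0. Of 5 stomatal lineage markers, 4 of them tested, 3 were higher in melinoe and 1 was lower with riboflavin, with summed levels of 23.7 to 25.0 TPM in melinoe, 15.4 to 15.9 TPM in the riboflavin group and 17.4 to 19.0 TPM in Col-0. No marker was at 0 in any library, and their part in the values of the 10 genes was not tested.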

How the data were processed

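Polyadenylated RNA of 9 seedling libraries was sequenced with a strand-specific kit on a DNBSEQ instrument, per the labels' protocols. Per the submitters' processing notes Bowtie2, RSEM, DESeq2 and the TAIR10 genome were used, with no versions given, whereas the design text names SOAPnuke 1.5.2 and HISAT2 2.0.4, so the aligner behind the values is not settled. The deposited tables set melinoe and the riboflavin group each against the same Col-0 libraries. Per the file headers they hold estimated counts for each gene, not normalized, of which 1.9% were not whole and were rounded here. The deposited TPM values are scaled for transcript length and depth by the authors. Their group means are quoted once, and the 12 columns of single libraries were not used, each library being represented by its counts. TPM of single libraries were computed here instead, from counts and the longest annotated transcript. The deposited log2 fold changes, p-values and q-values are the authors' own, and only a q-value is quoted.

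The tables were joined by locus into 24635 genes. Genes missing from a table (386 and 393) had 0 counts in Col-0 and were set to 0. The identifiers were then matched to loci of the TAIR10.1 RefSeq annotation, which gave positions and sequences. For each comparison its 6 libraries were fitted on all genes with edgeR 4.0.16 in R 4.3.3, using filterByExpr (minimum count 10, minimum total 15), TMM scaling and the quasi-likelihood F test with no block, and p-values were adjusted by Benjamini-Hochberg. CPM are on a TMM scale taken over all 9 libraries, whereas each test was scaled on its own 6 libraries. The script was tested on simulated data. The SE of a fold change was derived from the F statistic, as the absolute log2 fold change over the square root of F. The 95% intervals used this SE and a t quantile. Ratios of paralogs used counts plus 0.5.

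The 10 genes and all lists were chosen with earlier results of these data known. Named beside the 10 genes are FMN/FHY, and HEMA2, HEMA3 and CHLD as relatives of members. For each comparison, the called genes of the pathway and regulator lists with the 4 highest and 4 lowest fold changes are also named. Of the dark-inducible list the 2 highest and 2 lowest are named. Other names (GLK1 in melinoe, DIN4, CHLP, overlapping genes and the named cell type markers) were chosen after their values were seen. Column letters A to C match no replicate number in the labels. Alternatives were DESeq2 1.42.0, other scalings and filters, a joint fit of 9 libraries, a block by letter, a fold threshold and leaving out each library. A limma 3.58.1 fit on log2(TPM + 1) was added after seeing the data.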

Additional observations from a re-analysis of the deposited data

How the results depend on the processing

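With riboflavin against Col-0 and against melinoe, all 10 genes were called lower under each of the 14 alternative fits (140 of 140 values in each comparison). For melinoe against Col-0, 129 of 140 values kept their call, 9 lost it and 2 gained it (GUN4 without Col-0 library B and, at an adjusted p of 0.0421, with limma on TPM), and no direction changed. Calls were lost for PORB (4 fits), CHLI1 and PORC (2 each, limma on TPM among them with adjusted p of 0.174 and 0.063) and HEMA1 (1). The number of the 10 genes called higher in melinoe was 2, 0 with limma on TPM, and 1 to 2 when single libraries were left out; the cause was not tested. Limma on TPM, an alternative chosen after seeing the data, also gave 3953 genes higher and 6128 lower, or 39.2% of calls higher against 50.2%. Of the pathway list in melinoe, 5 and not 8 were lower with DESeq2, and 1 and not 2 were higher with a mean count of at least 50, which removed HO3. Adding a log2 fold change of at least 1 left 0 of the 10 higher and 1 lower in melinoe and 6 lower in riboflavin against melinoe. For the pathway list it left 1 higher and 1 lower in melinoe, 0 and 9 with riboflavin against Col-0, and 0 and 10 against melinoe. The 9 ratios kept their direction with a count of 5 added in place of 0.5 and without any single library. Limma and ratios on the deposited TPM of single libraries were planned but not run, since those columns were not used. Libraries of the same letter shared no deviation (correlations from -0.028 to 0.0307), so the letters were not taken to pair the samples; with a replicate block by letter the 10 genes still had 2 higher and 7 lower in melinoe and 10 lower with riboflavin, and no call of the 10 changed. Counts of 66 to 92 for PORA and 85 to 106 for PORC in the riboflavin libraries limit the precision of their values there.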
